A study of Mus musculus with 1111 samples.

Results

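A set of 10 genes of inflammation that are named as targets of the transcription factor NF-kB were followed through single mouse microglia: the inhibitors Nfkbia, Nfkbiz and Tnfaip3, the cytokines Tnf, Il1a, Il1b and Il6, the enzyme gene Ptgs2, and the surface proteins Cd83 and Icam1. They are a list of named genes, drawn up with earlier results of these data known, and are 10 of the 35583 genes in the count tables. All 10 were in the tables, and 9 of them had a read in at least 1 cell. The cells were sorted from the brains of mice aged 3 months, taken 20 hours after plasma proteins labelled with the dye NHS-Atto647N had been injected. No genotype or strain is given in the labels, and every group carried the injection, so there is no group of uninjected mice. The cells fall into 3 groups by their plasma signal, called plasma none, low and high. Each cell was read with Smart-seq2, which makes a library from each sorted cell and reads whole transcripts.

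Since the labels do not say which animal a cell came from, a group is 1 sample here, and the groups are compared without a test or p-value. The labels also carry a TH number from 1 to 3 and do not explain it. The TH numbers were used as 3 sets of wells, and every error is the SD over them (n = 3) and measures no spread between animals. The groups sit in fixed plate columns, plasma none in 1 to 8, plasma low in 9 to 16 and plasma high in 17 to 23 among the matched cells. Plate column and group therefore cannot be told apart. After filters on reads and genes 987 cells remained, of which plasma none made up 35.1%, plasma low 35.6% and plasma high 29.4%. The median depth was 207429, 229931 and 267143 reads per cell in these groups, and plasma high was deeper than plasma none within each TH number. The 9 sums, 1 for each group and TH number, held 21309816 to 49323522 reads. All 987 cells had reads of at least 3 of 8 microglia markers, which summed to 42988 to 50037 CPM (reads of a gene scaled by all reads in genes) over the 9 sums. All 6 lymphocyte markers and 5 of 6 neutrophil markers were at 0 reads, and the monocyte markers summed to 0.248 to 26.4 CPM. No cell had 3 markers of any other cell type's list.

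NF-kB proteins are held in the cytoplasm by inhibitors of the IkB family. Signals from cytokine receptors and pattern receptors activate the IKK kinases, which mark IkB for destruction, and the freed NF-kB enters the nucleus and binds kappaB sites in DNA. Among its targets are its own inhibitors, which end the response, and the cytokines and adhesion proteins of inflammation. In microglia, the resident macrophages of the brain, this programme is known for its strong induction by bacterial products and by injury, and part of it is also induced when tissue is dissociated.

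The DNA before the start site differs among these genes, and 5 stretches of 250 bases are shown because they carry the motif that gives the pathway its name, or the TATA box found before 3 of the 4 cytokine genes. They come from RefSeq promoters (build GRCm38.p6), which held 8 of the 10 genes; Nfkbiz and Cd83 had no entry. Each is printed on the strand of its gene and ends at the base before the start. Capitals mark a match to the kappaB consensus on either strand in Nfkbia (chr12:55492648-55492897, minus strand), Tnfaip3 (chr10:19015411-19015660, minus strand) and Il6 (chr5:30012864-30013113, plus strand).
Nfkbia: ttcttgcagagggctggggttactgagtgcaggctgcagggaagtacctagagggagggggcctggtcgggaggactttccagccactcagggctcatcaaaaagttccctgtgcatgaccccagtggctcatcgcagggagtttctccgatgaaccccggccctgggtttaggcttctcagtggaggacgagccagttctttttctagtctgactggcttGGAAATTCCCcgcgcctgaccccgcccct
Tnfaip3: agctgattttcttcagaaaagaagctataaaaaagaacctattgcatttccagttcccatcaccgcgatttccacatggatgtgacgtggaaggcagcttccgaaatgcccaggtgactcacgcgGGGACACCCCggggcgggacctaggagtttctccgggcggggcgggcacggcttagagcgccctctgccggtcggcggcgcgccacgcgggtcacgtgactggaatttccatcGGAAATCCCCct
Il6: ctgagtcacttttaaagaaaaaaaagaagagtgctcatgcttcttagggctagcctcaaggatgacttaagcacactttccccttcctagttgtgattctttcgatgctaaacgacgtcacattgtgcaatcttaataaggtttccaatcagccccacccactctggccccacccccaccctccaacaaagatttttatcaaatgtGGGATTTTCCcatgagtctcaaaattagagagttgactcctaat
In the next pair capitals mark the TATA box, TATAAA, in Il1a (chr2:129309973-129310222, minus strand) and Il1b (chr2:129371140-129371389, minus strand).
Il1a: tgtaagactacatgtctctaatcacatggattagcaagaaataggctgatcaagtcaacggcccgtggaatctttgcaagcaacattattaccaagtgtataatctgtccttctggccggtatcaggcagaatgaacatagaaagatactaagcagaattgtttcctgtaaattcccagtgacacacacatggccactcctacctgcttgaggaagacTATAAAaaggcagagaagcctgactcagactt
Il1b: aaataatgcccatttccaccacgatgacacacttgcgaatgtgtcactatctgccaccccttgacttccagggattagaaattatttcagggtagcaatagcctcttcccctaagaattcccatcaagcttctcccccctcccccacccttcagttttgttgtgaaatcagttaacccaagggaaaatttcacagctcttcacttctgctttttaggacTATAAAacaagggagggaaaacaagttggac
The kappaB consensus is the name used here for GGG, a purine, any 2 bases, 2 pyrimidines and CC, searched on both strands. It was found in 3 of the 8 genes with a promoter, against 7.25% of 32851 RefSeq promoters over the same length. The background counts promoters and not genes, and the 8 genes had 9 promoters. Another promoter of Tnfaip3 (chr10:19011964-19012213), not printed here, held no match to this motif or to the TATA box and AP-1 motif below. In Nfkbia the match lay 29 to 20 bases before the start, in Il6 44 to 35 bases before it, and in Tnfaip3 there were 2, the nearer at 12 to 3 bases. A TATA box lay 32 to 27 bases before the start of Il1a, 31 to 26 bases before that of Il1b and 29 to 24 bases before that of Tnf. In Tnfaip3 the same letters lay farther upstream, so 4 of the 8 genes held a match, against 12.4% of all promoters. An AP-1 motif, TGANTCA, was found before Tnfaip3, Il1a and Il6, and in 6.75% of all promoters. A match is a stretch of letters and not a measured site, and no binding was measured in these cells.

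The 10 genes ranged from broadly read to unread. Nfkbia was read in 36.6% of the 987 cells, Cd83 in 33.5%, Icam1 in 31.3%, Il1a in 20.9% and Tnfaip3 in 10.1%. Nfkbiz was read in 58 cells, Il6 in 55, Tnf in 8, Il1b in 6 and Ptgs2 in none. Between the groups, Cd83 alone kept the order none, low, high in every set of wells. Its mean level in these groups was 290.9 ± 46.4, 340.9 ± 59.9 and 474.7 ± 24.7 CPM. A single cell, in well B20 of TH 2, carried part of this: without it the plasma high mean was 409.4 CPM, its log2 ratio to plasma none was 0.47 in place of 0.71, and its range overlapped those of the other groups. Il1a stood the other way, at 129.2 ± 16.2, 104.6 ± 44.97 and 92.5 ± 17.02 CPM. No other gene of the 10 kept 1 direction between plasma none and plasma high in all 3 sets of wells.

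**Figure D1:**
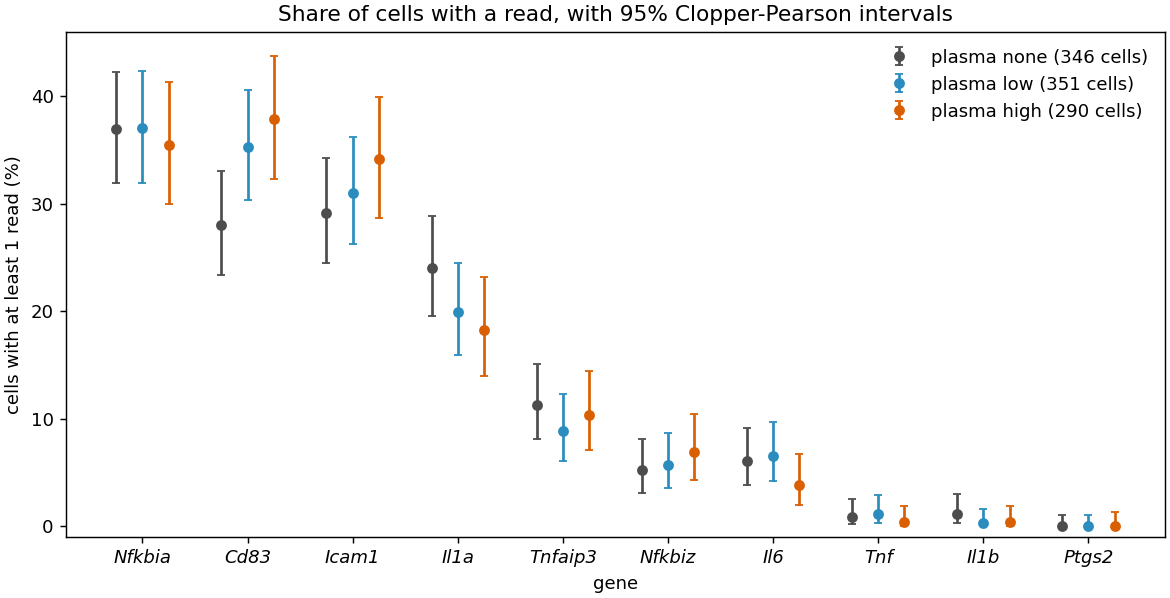
Points show the percent of passing cells with at least 1 read of each gene, by plasma group, and bars the 95% Clopper-Pearson intervals, which cover counting error only. Cd83 goes from 28.03% in plasma none to 37.9% in plasma high, Il1a from 23.99% to 18.3%, and Tnf, Il1b and Ptgs2 lie close to 0 in every group.

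To compare genes with each other, levels were divided by the exon length of the gene, as mean CPM per kilobase over the 9 sums. In order, Cd83 stood at 143.4 ± 35.5, Nfkbia at 109.1 ± 36.2, Il1a at 55.1 ± 15.3 and Icam1 at 41.9 ± 12.1 CPM per kilobase (SD over 9 sums). Il6 followed at 10.3 ± 6.65, Nfkbiz at 4.67 ± 4.29, Tnfaip3 at 4.14 ± 2.18, Tnf at 2.64 ± 4.74 and Il1b at 1.56 ± 2.39. Cd83 and Nfkbia lay within 1 SD of each other, as did Il1a and Icam1, and so did neighbours from Il6 downward. The gaps between Nfkbia and Il1a and between Icam1 and Il6 were wider than either SD.

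The size rule used below for a difference between groups asks for a mean log2 ratio of 1 or more in either direction (CPM plus a pseudocount of 1 CPM) and an equal sign in all 3 TH numbers. It further asks for a mean of 20 CPM or more and a read in 10% or more of the cells of 1 group. The last pair of conditions is a filter on low values, which 5 of the 10 genes passed in each comparison: Nfkbia, Tnfaip3, Il1a, Cd83 and Icam1. In plasma high against plasma none, 0 of these 5 met the rule, beside 5.15% of the 5534 genes that passed the filter. Cd83 and Il1a had 1 sign in all 3 TH numbers, beside 32.5% of those genes, and the same pair did not overlap between the groups, beside 13.9%. In plasma low against plasma none, 0 of the 5 met the rule (2.64% of 5489 genes), Nfkbia and Cd83 had 1 sign throughout (28.5%), and 0 were free of overlap (9.55%). In plasma high against plasma low, 0 met the rule (3.28% of 5709 genes), and Cd83 alone had 1 sign throughout (27.2%) and no overlap (9.67%). Without the cell in well B20, Cd83 overlapped between groups in both comparisons with plasma high and had both signs in high against low. The comparisons share groups, so they are not independent of each other. The genes with 1 sign throughout, 2, 2 and 1 of the 5, lie near what these backgrounds give for 5 genes, and no more is read from so few.

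**Figure D2:**
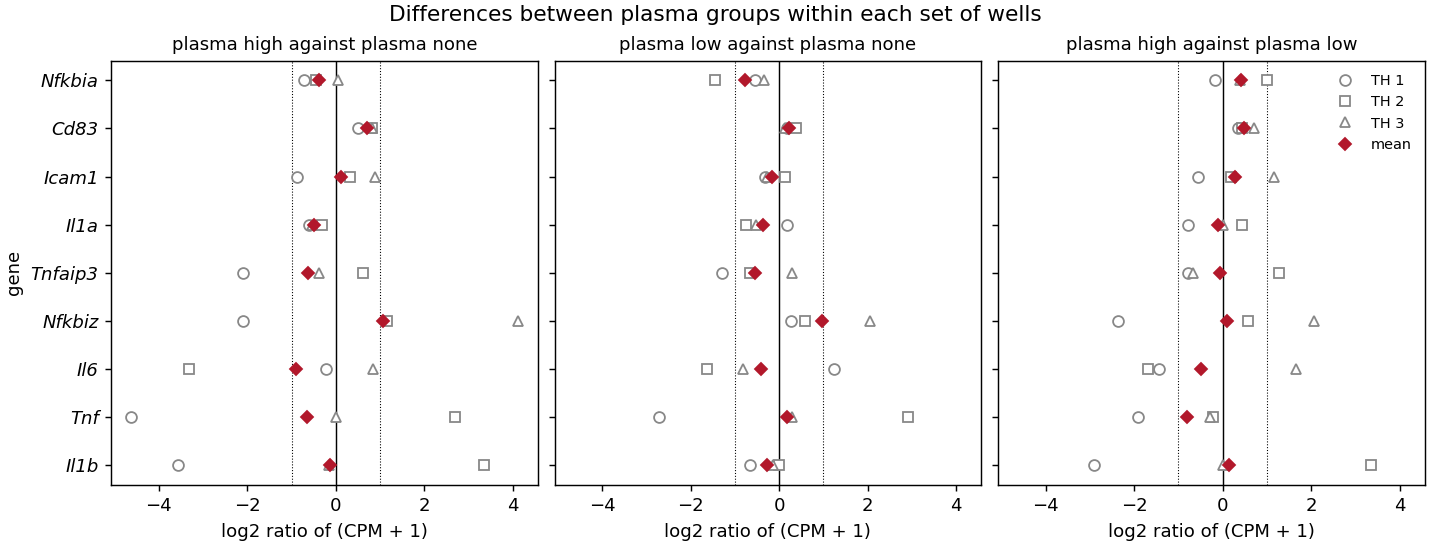
Open symbols give the log2 ratio of CPM plus 1 between groups within TH 1, 2 and 3, and filled diamonds their mean, for the 9 genes with reads; dotted lines mark a ratio of 1 in either direction. Cd83 lies to the right of 0 in every set of wells in all 3 panels, and no diamond of the 5 genes that passed the filter lies beyond a dotted line.

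Nfkbia encodes IkB alpha, the inhibitor that binds NF-kB and is itself rapidly remade after NF-kB is active; the gene lies at chr12:55489410-55492647 on the minus strand (mm10). Its level in TH 1, 2 and 3 was 237.4, 286.4 and 155.03 CPM in plasma none, 162.8, 103.3 and 121.97 for plasma low, and 144.4, 208.996 and 160.8 for plasma high. The highest values were those of TH 1 and TH 2 in plasma none, and the 3 groups overlapped. Plasma low was below plasma none in all 3 sets of wells, with log2 ratios of −0.54, −1.46 and −0.34 (mean −0.78 ± 0.60). Plasma high against plasma none gave −0.71, −0.45 and 0.05 (−0.37 ± 0.39), and plasma high against plasma low −0.17, 1.01 and 0.40 (0.41 ± 0.59). The share of cells did not follow these levels: 36.99% of plasma none cells, 37.04% of plasma low cells and 35.5% of plasma high cells had a read. Among cells with a read, the medians of the none, low and high groups were 448.2, 308.1 and 362.9 CPM. Over the pooled cells, the lower sum in plasma low thus went with a lower level in the cells that were read, not with fewer such cells. By set of wells this differed. In TH 2, 40.7% of plasma none cells and 30.8% of plasma low cells had a read, against 36.2% and 40.7% in TH 1 and 34.2% and 39.7% in TH 3. With the outermost wells of the plates left out, the mean ratio of plasma high against none was 0.06.

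Tnfaip3 encodes A20, an enzyme that edits ubiquitin chains and shuts off signalling to NF-kB (chr10:19000910-19015657, minus strand). It stood at 34.5, 25.1 and 44.7 CPM in TH 1, 2 and 3 of plasma none, at 13.4, 15.6 and 54.98 in plasma low, and at 7.30, 39.2 and 34.2 in plasma high. The groups overlapped, and a single well set, TH 3 of plasma low, held the highest value. The mean log2 ratio was −0.62 ± 1.38 in plasma high against plasma none, −0.55 ± 0.80 in plasma low against plasma none and −0.06 ± 1.16 in plasma high against plasma low. Of the cells in the none, low and high groups, 11.3%, 8.83% and 10.3% had a read, with overlapping intervals.

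Nfkbiz encodes IkB zeta, a nuclear IkB protein that helps switch on a further set of targets, Il6 among them (chr16:55811375-55838899, minus strand). Its values were 14.3, 29.2 and 0.762 CPM in plasma none, 17.4, 44.1 and 6.35 for plasma low, and 2.56, 66.3 and 29.7 for plasma high. TH 2 was the highest set of wells in every group. Only 18, 20 and 20 cells of the 3 groups had a read, and a single cell held 46.8% of the reads in plasma none and 36.7% in plasma high. Plasma low was above plasma none in all 3 sets of wells (0.97 ± 0.96), but with a read in at most 6.90% of the cells of a group the gene stayed below the filter. Plasma high against plasma none gave ratios from −2.10 to 4.12.

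Il1a encodes the cytokine IL-1 alpha, which acts as an alarm signal through the IL-1 receptor (chr2:129299610-129309972, minus strand). It was the most widely read of the 4 cytokine genes. Its level was 139.2, 137.9 and 110.5 CPM in TH 1, 2 and 3 of plasma none, 156.5, 81.6 and 75.9 in plasma low, and 91.02, 110.2 and 76.3 in plasma high. The highest plasma high value, 110.2, fell just under the lowest plasma none value, 110.5, while plasma low reached across both. The log2 ratio of plasma high against plasma none was −0.61, −0.32 and −0.53 (mean −0.49 ± 0.15), a level 0.716 times that of plasma none. It was −0.37 ± 0.48 for plasma low against plasma none and −0.11 ± 0.61 for plasma high against plasma low, with both signs among the sets of wells. A read was seen in 23.99% of plasma none cells (95% Clopper-Pearson interval 19.6% to 28.8%), 19.9% of plasma low cells and 18.3% of plasma high cells (14% to 23.2%). The shares estimated for an equal depth of 50000 reads were 21.97%, 18.4% and 16.9%. Il1a overlaps the gene Gm14023, and the use of strand in counting is not stated, so reads of the overlap cannot be told apart.

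Il6 encodes interleukin 6, a secreted cytokine that acts through Il6ra and Il6st (chr5:30013114-30019981, plus strand). Its values were 18.8, 49.4 and 22.5 CPM in plasma none, 45.5, 15.1 and 12.3 for plasma low, and 16.1, 4.04 and 40.8 for plasma high. Each group was highest in a different set of wells, and the mean log2 ratio of plasma high against plasma none was −0.90 ± 2.16. A read was seen in 6.07% of plasma none cells, 6.55% of plasma low cells and 3.79% of plasma high cells. The few cells with a read carried much of it: their median was 300.3 CPM, and 1 cell of plasma high reached 4402 CPM and held 46.1% of that group's reads.

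Tnf encodes tumour necrosis factor, a cytokine that both results from and activates NF-kB (chr17:35199381-35202007, minus strand). Only 3, 4 and 1 cells of the none, low and high groups had a read. By set of wells it stood at 23.9, 0 and 0 CPM in plasma none, at 2.80, 6.58 and 0.230 for plasma low, and at 0, 5.47 and 0 for plasma high. Of the 8 cells, 5 were in TH 1, among them all 3 of plasma none. In these cells the level ran from 24.4 to 1262 CPM, so a read of Tnf came with a sizeable level in most of them. Il1b, which encodes IL-1 beta, a cytokine released after cleavage by caspase-1, was read in 4, 1 and 1 cells of these groups (chr2:129364570-129371139, minus strand). Its values were 10.9, 0 and 0.109 CPM in plasma none, 6.47, 0 and 0 for plasma low, and 0, 9.25 and 0 for plasma high. Of its 6 cells, 2 had only 1 or 2 reads. No group difference was detectable for these genes with so few cells. All cells with Tnf or Il1b had 7 or 8 of the 8 microglia markers and 0 neutrophil and 0 monocyte markers. Il1b overlaps Il1bos on the genome, with strand use again not stated.

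Ptgs2 encodes COX-2, the inducible enzyme of prostaglandin synthesis (chr1:150100031-150108227, plus strand). It had 0 reads in all 987 cells, which by the limit of 3 counts allows a share of cells with a read of up to 0.304%, or 0.867%, 0.855% and 1.03% of plasma none, low and high. The 95% Clopper-Pearson intervals drawn in the plot of shares, which are two-sided, reach 0.373% over all cells. Ptgs1, the constitutive enzyme COX-1 of the same step, stood at 1329 ± 227.9, 1226 ± 90.4 and 1212 ± 131.1 CPM across the none, low and high groups. It was read in 90.5% of plasma none cells and 91.03% of plasma high cells. The absence of Ptgs2 reads was thus seen in cells where the related gene was read nearly throughout. These limits cover counting error and say nothing of cells whose transcripts were not captured.

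Cd83 encodes a surface protein of activated antigen-presenting cells that stabilises MHC class II (chr13:43784775-43803132, plus strand). Its level was 341.8, 280.2 and 250.9 CPM in TH 1, 2 and 3 of plasma none, 385.6, 364.2 and 272.9 in plasma low, and 486.5, 491.3 and 446.2 in plasma high. Within each set of wells the order was none, low, high, and the plasma high values all lay above every value of the other groups. The log2 ratio of plasma high against plasma none was 0.51, 0.81 and 0.83 (mean 0.71 ± 0.18), a 1.63-fold higher mean. Plasma low against plasma none gave 0.17, 0.38 and 0.12 (0.22 ± 0.14), and plasma high against plasma low 0.33, 0.43 and 0.71 (0.49 ± 0.19). Part of the sum came from single cells, the highest at 21213 CPM in plasma high. Without the cell in well B20 of TH 2, which is described below, the level in TH 2 of plasma high was 295.3 CPM and no longer lay above all of plasma none. The ratio to plasma none in TH 2 was then 0.08 and the mean 0.47 ± 0.38, and the ratio to plasma low in TH 2 was −0.30 and the mean 0.25 ± 0.51. With the highest cell of every sum left out instead, the plasma high values were 351.7, 295.3 and 410.3 CPM against 277.8, 252.1 and 243.2 in plasma none, which did not overlap. That mean ratio was 0.44 ± 0.28, while plasma high against plasma low became 0.20 ± 0.49 with both signs.

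The share of cells with Cd83, which a single cell cannot move far, was 28.03% for plasma none (23.4% to 33.1%), 35.3% for plasma low (30.3% to 40.6%) and 37.9% for plasma high (32.3% to 43.8%). By set of wells it was 31.03%, 28.3% and 24.8% in plasma none, 38.98%, 37.6% and 29.3% in plasma low, and 44.6%, 32.3% and 36.6% in plasma high. Plasma none was the lowest group in every set of wells, while plasma low and plasma high changed places in TH 2. The shares estimated for 50000 reads per cell were 26.4%, 34.1% and 36.6%. In the cells where it was read, the median level across the none, low and high groups was 949.1, 789.2 and 776.4 CPM. Cd83 was thus read in more cells of the plasma-positive groups, but at no higher a median level in the cells where it was read. Whether the deeper libraries of plasma high or the plate columns play a part was not tested beyond the equal-depth shares.

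**Figure D3:**
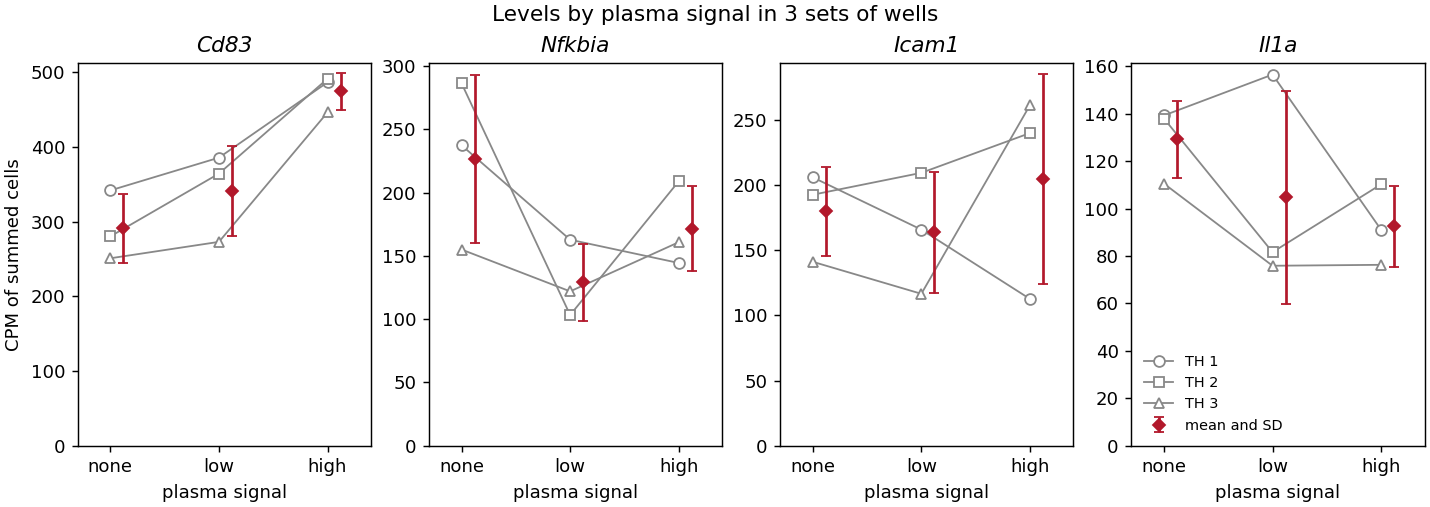
CPM of the summed cells of each group within TH 1, 2 and 3 (open symbols joined by lines), with the mean and SD over the 3 (filled diamonds and bars), for the 4 most widely read genes. Cd83 lies highest in plasma high in every set of wells, at 446.2 to 491.3 CPM, while the lines of Nfkbia, Icam1 and Il1a cross.

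Icam1 encodes an adhesion protein that binds leukocyte integrins (chr9:21015985-21028817, plus strand). Its values were 205.9, 192.5 and 141.1 CPM in plasma none, 165.8, 209.3 and 116.5 for plasma low, and 112.6, 239.8 and 261.2 for plasma high. Plasma high held both the lowest and the highest value of all 9 sums. The log2 ratio to plasma none was −0.86, 0.32 and 0.88 (0.11 ± 0.89), and without the cell in well B20 it was −0.26 in TH 2 and −0.08 ± 0.89 in the mean. The share of cells with a read was 29.2%, 31.1% and 34.1% across the none, low and high groups, with overlapping intervals. Icam1 overlaps Gm47079, and reads of the overlap cannot be told apart.

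The genes were next counted within cells. Of the 987 cells, 20.4% had a read of 0 of the 10 genes, 35.5% of 1, 28.1% of 2, 12.3% of 3 and 3.14% of 4, and 7 cells of 5 or more. The mean number per cell was 1.43 ± 0.19, 1.46 ± 0.22 and 1.47 ± 0.05 across the none, low and high groups. The groups thus differed by less than the SD, and the means estimated for 50000 reads were 1.33, 1.38 and 1.39. Single cells therefore usually held a read of a few of the genes, and seldom of most of them.

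**Figure D4:**
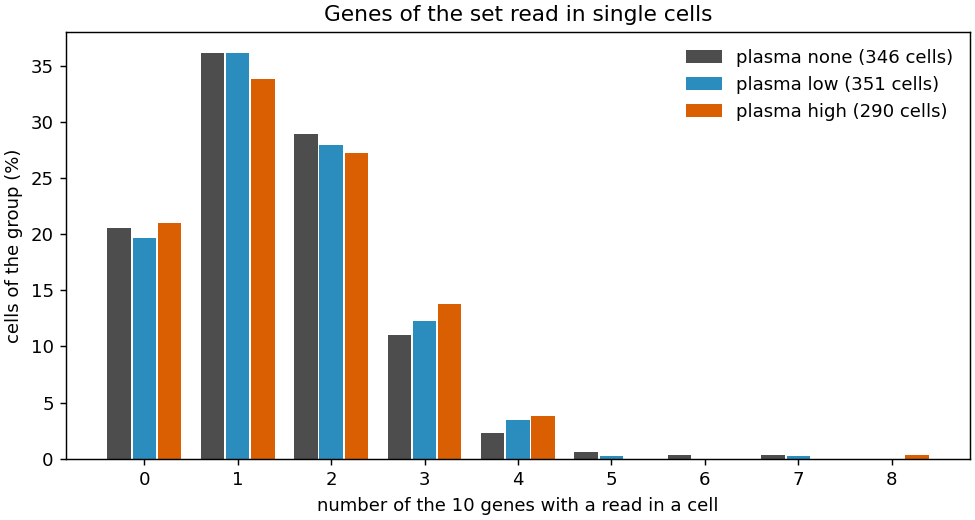
Bars give the percent of each group's cells by the number of the 10 genes with at least 1 read in the cell. The groups have nearly the same profile, with 20.5%, 19.7% and 21.03% of plasma none, low and high cells at 0 genes, and cells with 5 or more genes are rare in each.

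The share of cells with a read of a gene was set beside the reads of another in the same cell, with no test. Cd83 was read in 36.01% of the cells with Nfkbia and in 32.1% of those without it. Icam1 was read in 33.8% and 29.9% of cells with and without Nfkbia, and in 35.05% and 29.4% of cells with and without Cd83. Nfkbia was read in 42.2% of the cells with Il1a and in 35.1% of the cells without it, and in 44% and 35.7% of cells with and without Tnfaip3. Cd83 was read in 31.6% of cells with Il1a and in 34.1% of those without it, so this pair had the opposite order. Across the 987 cells, after the mean of each group and TH number was taken off log2(CPM + 1), Pearson's r between Nfkbia and Cd83 was 0.06, and between Nfkbia and Icam1 0.07. For Tnf and Il1b it was 0.41, which rests on the 2 cells with both. By the same measure over 6501 genes, the genes most like Cd83 were Ccl4 (r = 0.18), Pde4b (0.14) and Lipa (0.13), and those most like Nfkbia were Ccl4 (0.15), Rab20 (0.14) and Junb (0.13). For Il1a they were Slc16a3, Cln6 and Mrpl57 (each 0.13), for Tnfaip3 Slc4a1ap, Ptar1 and Gart (each 0.12), and for Icam1 Kdm5d, Galnt1 and Hmgcs1 (each 0.12). Ccl4, the first for both Cd83 and Nfkbia, was read in only 21 of the 987 cells, 16 of them with Cd83 and 14 with Nfkbia. The cell in well B20 of TH 2 was among them. All these correlations are weak in sparse counts, and cells share their library's depth, so they are given as a description only.

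Only 7 cells held 5 or more of the genes, which were 4, 2 and 1 in the none, low and high groups, and 5 of them were in TH 1. The richest was the plasma high cell in well B20 of TH 2, with 561670 reads and 8 of the 10 genes. In it Cd83 reached 15406 CPM, Icam1 6265, Nfkbiz 2382, Nfkbia 1074, Il1b 713.9, Tnf 422.0, Tnfaip3 347.2 and Il1a 103.3 CPM. It also held the chemokine genes Ccl4 at 13243 CPM, Ccl3 at 8774, Ccl12 at 5989, Cxcl10 at 2005 and Ccl2 at 1353 CPM. The immediate early genes Fos, Egr1 and Atf3 were at 0 reads in all 7 cells, and Jun was read in 3 of them but not in this one. All 8 microglia markers were read there, P2ry12 at 4353 CPM among them. This single cell gave all the reads of Tnf and Il1b in plasma high, 80.2% of those of Ccl4, 76.6% of Ccl3 and 65.2% of Ccl2. Without it, Tnf and Il1b were both at 0 reads in plasma high.

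The plasma none cell in well I7 of TH 1 held 7 of the genes, with Nfkbia at 3278 CPM, Tnf at 1262 and Il1b at 1113 CPM. It was the other cell with both Tnf and Il1b, and it had Cd83 at 4256, Ccl12 at 1491 and Ccl4 at 272.2 CPM, with no read of Ccl2, Ccl3 or Cxcl10. The plasma none cell in well F6 of TH 1 held Ccl12 at 713.8, Ccl2 at 274.2 and Ccl3 at 151.3 CPM beside Cd83 at 6830 CPM. The plasma low cell in well I11 of TH 1 also held 7, Il6 among them at 676.7 CPM, with no read of Tnf, Il1b or Ccl4. Cells with many of the genes were thus found in all 3 groups, and chemokine reads were seen in 4 of the 7, at the highest levels in B20.

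**Figure D5:**
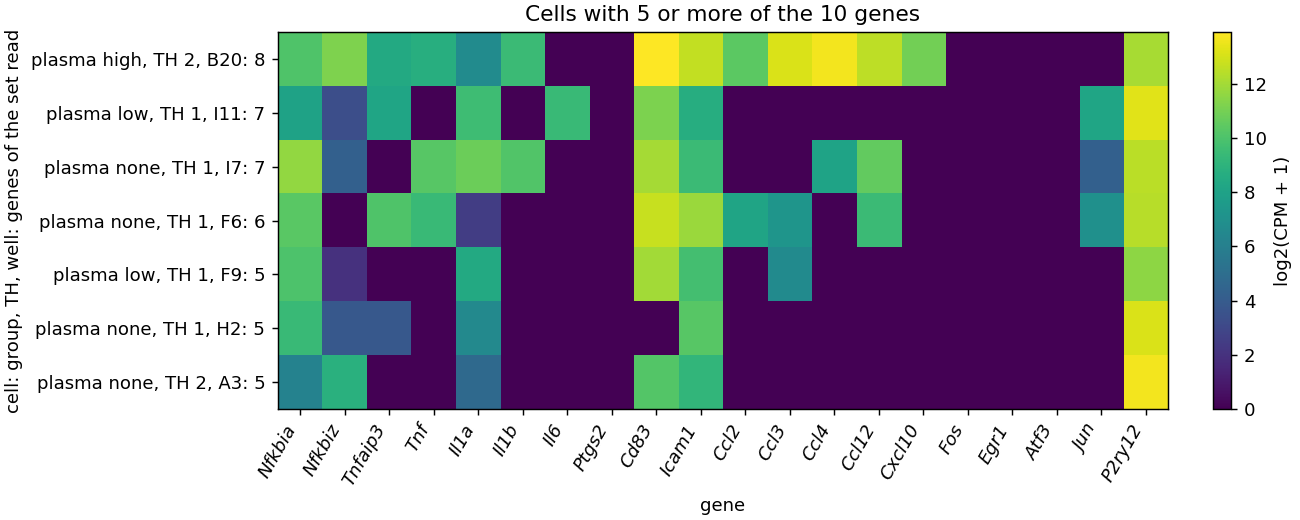
Colour gives log2(CPM + 1) of the 10 genes, 5 chemokine genes, 4 immediate early genes and P2ry12, a microglia marker, in the 7 cells with at least 5 of the 10 genes. The top row, the plasma high cell in well B20 of TH 2, has reads of all 5 chemokine genes, the row of well F6 of 3, that of I7 of 2 and that of F9 of 1, while Fos, Egr1 and Atf3 are at 0 in all 7 rows.

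The wider pathway was described with lists of its genes, each by its median log2 ratio over genes with a mean of 5 CPM or more, and by the medians within TH 1, 2 and 3. The list median is taken over the mean ratio of each gene, so it can lie outside the medians by set of wells. A gene called the highest or lowest of a list is so among its genes with a mean of 20 CPM or more. Over all 10430 genes with a mean of 5 CPM or more the median of plasma high against plasma none was 0.03, with 1594 genes higher and 1456 lower in all 3 sets of wells. The 10 genes themselves had a median of −0.37 over the 7 that reached this level, but −0.71, 0.32 and 0.83 by set of wells, so the sets differed in sign. In plasma low against plasma none the median was −0.26 over 8 genes (−0.07, −0.26 and −0.08 by set of wells). In plasma high against plasma low it was 0.09 over 7 genes (−0.78, 0.43 and 0.71 by set of wells), again with both signs.

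The 5 NF-kB subunit genes had a median of −0.18, and of −0.56, −0.24 and −0.54 by set of wells. Nfkb1, which encodes p105 and p50, stood at 141.99 ± 40.2, 104.4 ± 14.6 and 96.4 ± 36.6 CPM across the none, low and high groups. Plasma high was below plasma none in all 3 sets of wells (−0.59 ± 0.18), while its share of cells was 27.2% and 30.7%. Rela, the p65 subunit, had −0.18 ± 0.77, Nfkb2 0.26 ± 0.76, Relb −0.85 ± 1.53 and Rel, the c-Rel subunit, 0.96 ± 1.42, each with both signs. The filter was passed by 4, 3 and 4 of the 5 in high against none, low against none and high against low, and 0 of these met the size rule.

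Of the 27 genes of IKK kinases and adaptors, 25 reached the level, with a median of −0.32, but −0.21, 0.12 and −0.28 by set of wells, with both signs. Of the 25 genes 8 were higher and 17 lower, beside 5414 higher and 5016 lower of all 10430 genes at this level. In all 3 sets of wells 2 were higher and 6 lower. Ripk1, a kinase that links the TNF receptor to IKK and to cell death, was the 1 gene of the 15 past the filter that met the size rule: it stood at 30.7 ± 21.2 CPM in plasma none and 64.96 ± 30.8 in plasma high (1.13 ± 0.49). In 1 of those groups, 31.7% of the Ripk1 reads came from 1 cell. The kinase genes Chuk and Ikbkb, which encode IKK alpha and IKK beta, had −0.77 ± 0.26 and −0.34 ± 0.06, both lower in all 3 sets of wells. Map3k8, the kinase TPL2, had the lowest ratio at this level, −1.79 ± 2.83, with both signs. In the 18 IkB proteins and feedback inhibitors outside the 10 genes the median was 0.07 over 13 genes (−0.28, 0.17 and 0.53 by set of wells), from Cyld at −0.73 ± 1.72 to Otulin at 0.66 ± 1.98. Without the cell in well B20 this median was −0.06, with 6 genes higher and 7 lower in place of 8 and 5. The filter was passed by 8 of the 18, and 0 of these met the size rule.

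Receptors for TNF, IL-1 and IL-6 had a median of 0.17 over 7 of 10 genes (0.11, −0.19 and 0.26 by set of wells), and 0 of the 6 that passed the filter met the size rule. Ltbr, the lymphotoxin receptor, had 0.81 ± 0.66, and Tnfrsf1b, TNF receptor 2, −0.34 ± 0.39. The receptor gene of IL-6, Il6ra, was at 455.5 CPM in plasma none and 390.1 in plasma high, with a read in 62.7% and 66.6% of their cells. The 13 genes of cytokine processing and antagonists had a median of −0.12 over 10 genes (0.02, 0.46 and −0.13 by set of wells), from Casp4 at −0.68 ± 1.25 to Adam17, which sheds TNF from the membrane, at 0.44 ± 0.60. In plasma high against plasma low, Casp4 (−1.33 ± 1.64) and Il18 (−1.05 ± 0.94) met the size rule. Il18, an IL-1 family cytokine, stood at 28.7 ± 9.23, 51.2 ± 4.10 and 26.8 ± 13.97 CPM across the 3 groups from none to high, so plasma low was the group that stood apart. The prostaglandin genes had a median of −0.02 over 7 of 10 (0.02, −0.11 and −0.27 by set of wells). Hpgds, the synthase of prostaglandin D2, was lower in plasma high in every set of wells (−0.47 ± 0.06, 1298 ± 112.04 against 934.8 ± 40.8 CPM), and Hpgd, which breaks prostaglandins down, was higher (0.37 ± 0.29).

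The list of other NF-kB targets had the highest median, 0.78 over 22 of 29 genes. Of these 22 genes 19 were higher and 3 lower, beside 5414 higher and 5016 lower of all 10430 genes at this level. By set of wells the list median was 0.23, 1.20 and 0.01, and 3 genes were higher and 1 lower in all 3. Without the cell in well B20 the median was 0.43 over 20 genes (0.45, 0.53 and −0.06 by set of wells), with 16 higher and 4 lower. In plasma high against plasma low the median went from 0.37 to 0.09 without that cell. Cxcl16, a chemokine made as a membrane protein, met the size rule at 61.2 ± 29.8 CPM in plasma none and 124.7 ± 43.6 in plasma high (1.11 ± 1.34), with 0.49, 2.65 and 0.20 in TH 1, 2 and 3. Ccl4 had the highest ratio, 3.71 ± 2.32, on reads of 2.41% of plasma high cells. The cell in well B20 alone held 80.2% of the Ccl4 reads of plasma high, and a ratio without it is not given here. Bcl2l1, which encodes the survival protein BCL-XL, was the lowest at −0.68 ± 0.20 (820.2 ± 99.1 against 507.8 ± 15.5 CPM) and was lower in all 3 sets of wells.

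Immediate early, AP-1 and dissociation genes were set beside the 10 genes because cell handling induces both kinds. Over 13 of 23 genes their median was 0.12 (−0.04, 0.23 and −0.01 by set of wells). Fos was read in 0.289% of plasma none cells and in no plasma high cell, and Egr1 was at 0 reads in both. The list was not silent as a whole, since Junb was read in 451 of the 987 cells. Jun stood at 103.9 ± 8.85, 106.6 ± 20.7 and 65.9 ± 9.81 CPM across the none, low and high groups, with −0.66 ± 0.29 between high and none and the same sign in all 3 sets of wells. Ier2 had −1.35 ± 1.56 and Rhob 0.44 ± 0.53. The part of cell handling in the levels of the 10 genes was not tested. Of the list genes that passed the filter, the size rule was met by 2 of 66 (Ripk1 and Cxcl16) between plasma high and none, by 0 of 64 between low and none, and by 2 of 66 (Casp4 and Il18) between high and low. These shares, 3.03%, 0% and 3.03%, are no higher than the 5.15%, 2.64% and 3.28% of all genes tested.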

How the data were processed

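Smart-seq2 reads were measured in 1111 labelled cells. The well and the TH number tied 1045 of them to a column of the deposited tables, and the other 66 cells are not analysed here. The deposited values are counts of reads per gene, 1 table for each TH number. In 1 column the deposited values hold expected counts, since 2 of its values were not whole, and they were rounded. Per the submitters' processing notes the tools include bcl2fastq, Trim Galore, STAR 2.5.3a and Seurat, with build mm10; how reads were counted, and whether by strand, is not given in the sources used here. Per the file headers, the TH 2 and TH 3 columns come from alignments reduced to top hits.

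Cells with at least 50000 reads and 500 genes were kept (346 of plasma none, 351 of plasma low, 290 of plasma high) and summed by group and TH number. CPM used TMM factors from edgeR 4.0.16 (R 4.3.3), and size factors from DESeq2 1.42.0 were an alternative. With 1 sorted cell a well, doublets were not called. Shares at 50000 reads were estimated from the hypergeometric distribution. Intervals are 95% Clopper-Pearson, and limits of a 0 use 3 counts; both cover counting error only.

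The genes and lists were chosen with earlier results of these data known. All 10 genes were named. From each list the text names genes that met the size rule, the genes with the highest and lowest ratio of plasma high to plasma none at a mean of 20 CPM or more, and all subunit genes. For each gene of the 10 read in at least 10% of cells, the 3 genes with the highest correlation were named. Ptgs1, Chuk, Ikbkb, Il6ra, Jun, Fos, Egr1, Junb among the immediate early genes, and the chemokine genes in single cells were named after their values were seen. Leaving out the cell in well B20 was likewise chosen after seeing the data.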

Additional observations from a re-analysis of the deposited data

How the results depend on the processing

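The size rule depended on its settings. The share of tested genes that met it was 5.15%, 2.64% and 3.28% in plasma high against none, low against none and high against low. With no filter on low values it was 8.35% (1434 genes), 6.56% (1118) and 6.81% (1173), and at a ratio of 1.5-fold 16.3% (903 genes), 10.2% (561) and 11.1% (636). With 1 TH number left out it ran from 8.23% to 10.9%, from 5.52% to 6.79% and from 6.85% to 7.70%, where fewer signs had to be equal. Of the 10 genes, 1 (Cd83) met the rule in plasma high against none at 1.5-fold and 1 (Tnfaip3) without TH 2, a range of 0 to 1. In plasma low against none, 1 (Nfkbia) met it at 1.5-fold and 1 (Nfkbia) without TH 3, again a range of 0 to 1. The median of the 10 genes in plasma low against none was −0.11 without the outermost wells and −0.064 without the highest cell of every sum, and ran from −0.24 to −0.15 with 1 TH number left out. In plasma high against none it ran from −0.47 to 0.12 and in high against low from −0.17 to 0.57. The causes were not tested. The log2 ratio of Cd83 was above 0 under all 13 alternatives run in high against none (0.44 to 0.82), and that of Il1a below 0 under all 13 (−0.67 to −0.43). Changing the pseudocount, the scaling or the cell filter moved none of the counts of the 10 genes. Tnf, Il1b and Ptgs2 had shares of cells near the limit of a 0. At 50000 reads per cell the estimated share was 0.784% for Tnf (0.811% at full depth) and 0.523% for Il1b (0.608%).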
